A study of Mus musculus with 6 samples.

Results

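The supply side of Bmp signaling was followed in day 2 epiblast-like cells (EpiLCs) with and without Smad2 and Smad3. The genes were chosen by symbol from the expression table. They are the ligands Bmp2, Bmp4, Bmp7 and Bmp8b, the type I receptors Bmpr1a, Bmpr1b, Acvr1 and Acvrl1, the type II receptor Bmpr2, and Bmp1. These 10 genes were taken out of 24288 gene symbols, each at the entry with the most reads, and all 10 passed the filter on low values. Bmp1 carries the family name but is a secreted metalloprotease and no ligand, so it is described apart from the others.

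Bmp ligands are secreted dimers of the TGF-beta superfamily. They bring together type I and type II receptor kinases, and the activated type I receptor phosphorylates Smad1, Smad5 and Smad9, which enter the nucleus with Smad4 and switch on targets such as the Id genes. Nodal and activin use other type I receptors and act through Smad2 and Smad3, so both branches share Smad4. In the early mouse embryo Bmp4 is made by the extra-embryonic ectoderm and Bmp2 by the visceral endoderm, and both act on the neighboring epiblast.

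Wild-type (WT) cells were of the CCE embryonic stem cell line (strain 129/Sv//Ev), and double knockout (DKO) cells were of clone KT15.1F6 of the same strain, which is homozygous for a targeted Smad2 allele and lacks Smad3 exon 1. Both were grown on fibronectin for 48 hours in N2B27 with 20 ng/ml activin A, 12 ng/ml Fgf2 and 1% KSR, and the labels name no added Bmp. Total RNA depleted of ribosomal RNA was sequenced from 3 independent differentiations per genotype. Each genotype is 1 line and the DKO clone was targeted in an existing Smad2 mutant line, so the knockout and other differences between the lines cannot be told apart. Levels are normalized reads, that is, read counts over the whole gene body divided by 1 size factor per library, and errors are SD over n = 3 libraries per group unless stated otherwise.

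Depth was even, with 57644143 to 63046034 reads per library. Smad3 fell from 839 ± 37.0 to 23.6 ± 6.16 normalized reads, whereas Smad2 measured 4520 ± 86.3 in WT and 5062 ± 109 in DKO, and reads over the gene body do not check its targeted allele. The epiblast genes Pou5f1 (21846 ± 496 in WT and 20761 ± 344 in DKO) and Otx2 (3596 ± 117 and 4219 ± 53.8) were abundant in both groups. Of 8 epiblast markers tested, Sox2 (2798 ± 46.0 in WT and 7741 ± 110 in DKO) was called higher in DKO, against 7.35% of all genes. Fgf5 (3235 ± 12.6 and 798 ± 23.0) and Pou3f1 (6064 ± 147 and 3948 ± 161) were called lower, against 8.04% of all genes.

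Upstream sequence is shown for Bmp4, Acvr1 and Bmpr1b, which were lower in DKO, from the RefSeq promoter table (GRCm38.p6, the mm10 assembly). The table held 6 of the 10 genes, and the window of Bmpr2, also lower, lies within its own annotated transcript and is not shown. Each stretch is the 250 bases before the start, read 5′ to 3′ on the strand of the gene, and capitals mark CAGAC or its reverse complement GTCTG, a short sequence of the kind that Smad proteins bind.
Bmp4, chr14:46390670-46390919, minus strand: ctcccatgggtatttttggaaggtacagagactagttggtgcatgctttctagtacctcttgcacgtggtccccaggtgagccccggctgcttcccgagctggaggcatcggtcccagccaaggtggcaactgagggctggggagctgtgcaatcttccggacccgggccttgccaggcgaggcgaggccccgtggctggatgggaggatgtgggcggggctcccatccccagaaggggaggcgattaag
Acvr1, chr2:58566829-58567078, minus strand: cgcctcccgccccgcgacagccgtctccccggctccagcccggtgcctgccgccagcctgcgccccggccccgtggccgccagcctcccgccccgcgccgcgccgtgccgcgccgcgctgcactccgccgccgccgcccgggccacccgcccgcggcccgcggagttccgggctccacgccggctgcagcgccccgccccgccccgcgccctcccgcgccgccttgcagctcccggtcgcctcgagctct
Bmpr1b, chr3:141982265-141982514, minus strand: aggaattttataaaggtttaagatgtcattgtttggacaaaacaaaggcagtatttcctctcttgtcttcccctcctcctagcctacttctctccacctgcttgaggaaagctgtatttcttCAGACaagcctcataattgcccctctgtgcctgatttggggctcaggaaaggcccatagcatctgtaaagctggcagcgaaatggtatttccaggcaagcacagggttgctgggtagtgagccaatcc

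The 3 stretches differ in base composition. G and C make up 85.6% of the bases before Acvr1, 63.2% before Bmp4 and 46.8% before Bmpr1b, against a median of 52.4% over 32851 promoters. Acvr1 has 46 CpG dinucleotides in this window and Bmpr1b has 1. CAGAC or GTCTG occurs once before Bmpr1b and is not in the windows of Bmp4 and Acvr1, while 42.2% of all promoter windows of this length hold it. GGCGCC, a GC-rich sequence bound by Smad1 and Smad5, is in 9.59% of all windows, and AATCCACA, the core of the Foxh1 site, or its reverse complement TGTGGATT is in 0.718%. Neither is in these 3 windows. Among the windows not shown, those of Bmpr2 and Bmpr1a hold 1 GGCGCC each, and that of Bmp8b holds 1 CAGAC or GTCTG. The Bmpr1b window belongs to an internal start, which lies within the body of the longer entry used for counting. The table holds windows at a further 2 internal starts of Bmpr1b, with 52.8% and 56.4% G and C and 5 CpG dinucleotides each, and CAGAC or GTCTG is in 1 of these 2.

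Of the 10 genes, Bmp4 and Bmpr1b were lower and Bmp1 was higher in DKO at an adjusted p under 0.05 and a fold change over 1.5 (limma on log2 of value + 1, Benjamini-Hochberg adjustment over 17038 genes). By the same rule 15.4% of all genes tested were called, 8.04% lower and 7.35% higher. A further 3 genes, Acvr1, Bmpr2 and Bmpr1a, passed the adjusted p alone. That makes 6 of 10 genes against 53.4% of all genes, with 4 lower (26.5% of all genes) and 2 higher (26.9%). The libraries of DKO and WT did not overlap for 7 of the 10 genes against 59.0% of all genes, with 5 lower in DKO (29.3%) and 2 higher (29.7%). These shares of the 10 genes by p and by overlap are near those of all genes. The median log2 fold change was -0.30 over the 10 genes and 0.00 over all genes tested.

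**Figure D1:**
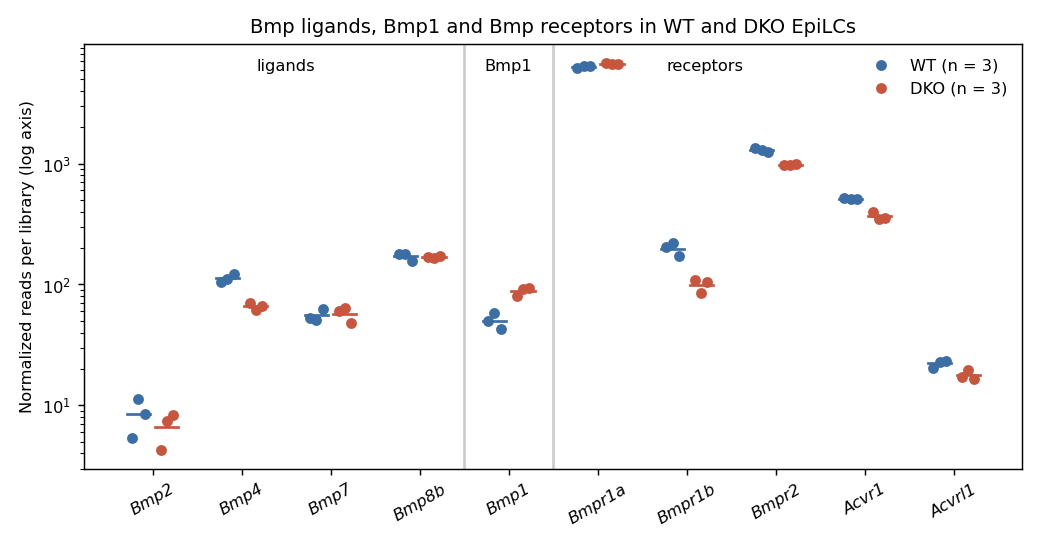
Normalized reads of each gene in each library on a log axis, with WT in blue and DKO in red (n = 3 each, horizontal bars mark means). Bmp4 and Bmpr1b lie lower in DKO and Bmp1 lies higher. Values are not divided by gene length, so heights are to be compared within a gene.

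Among the ligands, Bmp4 was the one called lower. Bmp4 (NM_007554, chromosome 14, 46383520 to 46390669, minus strand, mm10) measured 105, 110 and 123 normalized reads in the WT libraries and 70.0, 60.9 and 66.9 in the DKO libraries. All DKO libraries lay below all WT libraries, and the DKO mean was 0.584 of the WT mean. The log2 fold change was -0.77 ± 0.13 (SE, adjusted p = 1.16e-05). These values rest on 194 to 230 reads per WT library and 116 to 130 per DKO library. The antisense gene Gm15222 covers 24.7% of the Bmp4 body, and since the use of strand in counting was not stated, its reads cannot be told apart from those of Bmp4. The same limit holds for opposite-strand genes over Bmp8b (Gm17244, 16.3% of the body) and Acvrl1 (Gm16031, 9.97%).

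Bmp8b (NM_007559, chromosome 4, 123105165 to 123126091, plus strand), known for its part in germ cell specification, did not pass the test. It had 177, 180 and 157 normalized reads in WT and 170, 166 and 171 in DKO. The groups overlapped, with a log2 fold change of -0.02 and a 95% interval of -0.21 to 0.17. Oxct2b lies within the Bmp8b body on the same strand and held 35.5 to 51.8 normalized reads in WT and 44.6 to 50.4 in DKO. With these subtracted, Bmp8b measured 130 ± 11.04 in WT and 121 ± 5.45 in DKO. Bmp8a, a gene on the same chromosome, went from 123 ± 15.4 to 170 ± 14.8 (log2 fold change 0.47 ± 0.11, adjusted p by limma = 0.000672), under the 1.5-fold threshold. Its sequence is nearly the same as that of Bmp8b, so the split of reads between both genes is uncertain. Oxct2a overlaps the Bmp8a body on the same strand, with 19.9 to 29.9 normalized reads in WT and 24.8 to 43.5 in DKO, which were not subtracted.

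Bmp7 (NM_007557, chromosome 2, 172868012 to 172940321), a ligand that can pair with Bmp2 or Bmp4 in heterodimers, gave 53.2, 51.2 and 62.9 normalized reads in WT. In DKO it gave 60.3, 63.6 and 47.7. The groups overlapped, and the 95% interval of the log2 fold change ran from -0.30 to 0.36 around 0.03. Bmp2 (NM_007553, chromosome 2, 133552159 to 133562885) was barely detected, with 10, 20 and 16 reads in WT and 8, 14 and 16 in DKO. At this depth a difference was not detectable for Bmp2 (log2 fold change -0.29 ± 0.39, adjusted p = 0.554, 95% interval -1.09 to 0.51).

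Levels of different ligands were compared per kilobase of gene body, a scale on which introns count as length, and per kilobase of exon. By gene body Bmp4 led the WT ligands at 15.8 ± 1.25 normalized reads per kb. Bmp8b followed at 8.19 ± 0.603, and Bmp2 (0.786 ± 0.280) and Bmp7 (0.771 ± 0.0868) did not differ beyond their spread. In DKO the gap at the top narrowed, with Bmp4 at 9.22 ± 0.641 and Bmp8b at 8.07 ± 0.124. Within a library, the level of Bmp4 was 1.94 ± 0.303 times that of Bmp8b in WT and 1.14 ± 0.0668 times in DKO. Divided by exon length in place of body length, the WT order changed, since Bmp8b (58.3) and Bmp4 (54.6) then led and Bmp7 (15.2) exceeded Bmp2 (2.37). All Bmp8b levels here, and the ratio of Bmp4 to Bmp8b, include the Oxct2b reads. Without these reads Bmp8b measured 130 in place of 171 normalized reads in WT. Its place above Bmp4 on the exon scale depends on them.

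Summed over the 4 ligands, the level was 24.4, 25.8 and 26.3 normalized reads per kb in the WT libraries and 19.1, 18.0 and 19.0 in the DKO libraries. On this scale the DKO sum was 0.733 of the WT sum, and no DKO library reached a WT library. The ratio was 0.857 without division by length and 0.819 per kb of exon, again with no overlap. Bmp8a is not in this sum and went from 4.03 in WT to 5.57 in DKO per kb of gene body. Bmp4 made up 61.8 ± 2.98% of the WT sum and 49.3 ± 1.94% of the DKO sum, and the share of Bmp8b was 32.1 ± 3.26% and 43.2 ± 0.828%. The sums and the share of Bmp8b include the Oxct2b reads. No test is given for such sums. In bulk RNA, fewer cells that express a ligand and less RNA per cell cannot be told apart.

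Markers of the tissues that make Bmp4 and Bmp2 in the embryo were read in the same libraries. Of 9 extra-embryonic ectoderm markers tested (10 listed), 7 were higher in DKO, namely Cdx2, Eomes, Gata3, Tfap2c, Hand1, Plac1 and Krt8, against 7.35% of all genes. The list summed to 2527 to 2727 normalized reads in WT and 3939 to 4289 in DKO. Krt18 (1158 in WT and 1570 in DKO) and Ets2 (786 and 669), which were not called, make up most of the WT sum. The defining trophoblast factor Elf5 was near 0, at 0.716 in WT and 1.04 in DKO. Bmp4 was lower and this list higher in DKO, but a contrast of 1 line per genotype cannot relate them to each other. Visceral endoderm markers, which go with Bmp2 in the embryo, summed to 279.9 to 313 in WT and 286 to 366 in DKO. There Cubn and Hnf4a were called higher and Apob lower of 8 tested, and Ttr was near 0 (0.379 and 0.179). Of 5 mesoderm markers tested, Kdr and Hand1 were higher and T, Mixl1 and Tbx6 lower, with a sum of 106 to 118 in WT and 102 to 115 in DKO. The part of these cell types in the level of Bmp4 was not tested.

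**Figure D2:**
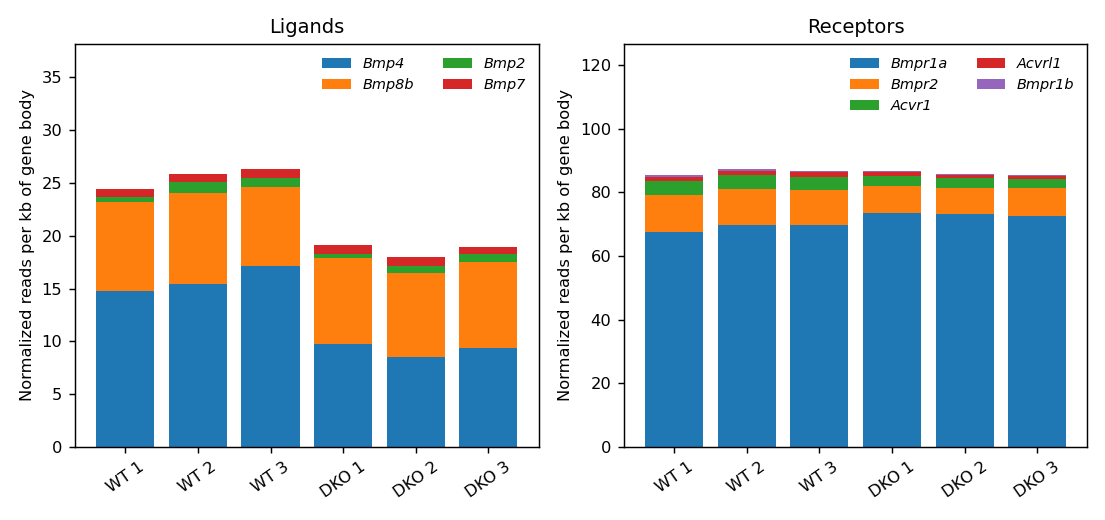
Normalized reads per kb of gene body, stacked by gene, in each library for the 4 ligands (left) and the 5 receptors (right). The ligand sum falls from 25.5 to 18.7 on average, largely in the Bmp4 layer, whereas the receptor sum stays near 86 with a thicker Bmpr1a layer in DKO.

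Receptor genes differed in level far more than they differed between genotypes. Bmpr1a (NM_009758, chromosome 14, 34410734 to 34502687, minus strand), the type I receptor for Bmp2 and Bmp4 that the embryo needs for gastrulation, was the highest. It measured 6210, 6418 and 6418 normalized reads in WT and 6755, 6724 and 6685 in DKO. Each DKO library exceeded each WT library, but by little, as the DKO mean was 1.06 times the WT mean. The log2 fold change of 0.08 ± 0.03 passed the adjusted p (0.00907) and stayed under the 1.5-fold threshold.

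The type II receptor Bmpr2 (NM_007561, chromosome 1, 59763400 to 59879014, plus strand) moved the other way. Its values were 1343, 1298 and 1259 normalized reads in WT and 980.0, 969 and 997 in DKO. The groups did not overlap, and the DKO mean was 0.755 of the WT mean (log2 fold change -0.40 ± 0.04, adjusted p = 5.25e-09). Acvr1 (NM_001110204, chromosome 2, 58446441 to 58566826, minus strand), a type I receptor used mainly by Bmp7 and its relatives, had 521, 513 and 506 in WT and 400.4, 346 and 356 in DKO. This gave a log2 fold change of -0.49 ± 0.06 (adjusted p = 3.83e-07), again with no overlap. The 95% interval for Acvr1, from -0.62 to -0.35, reached past the 1.5-fold threshold of 0.585, whereas that for Bmpr2 ended at -0.49.

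Bmpr1b (NM_001277216, chromosome 3, 141840367 to 142169213, minus strand), a second type I receptor for Bmp ligands with a known part in cartilage, had the largest change of the 10 genes. The WT libraries held 204, 220 and 171 normalized reads and the DKO libraries 108, 85.6 and 104. All DKO values lay below all WT values, at 0.501 of the WT mean, and the log2 fold change was -0.99 ± 0.11 (adjusted p = 4.38e-08). Acvrl1 (NM_001277255, chromosome 15, 101128522 to 101145336), best known as a receptor of blood vessel cells, was low throughout. It had 38, 40 and 44 reads in WT and 32, 37 and 32 in DKO, and its log2 fold change of -0.31 ± 0.24 did not pass the test (adjusted p = 0.284, 95% interval -0.80 to 0.18).

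**Figure D3:**
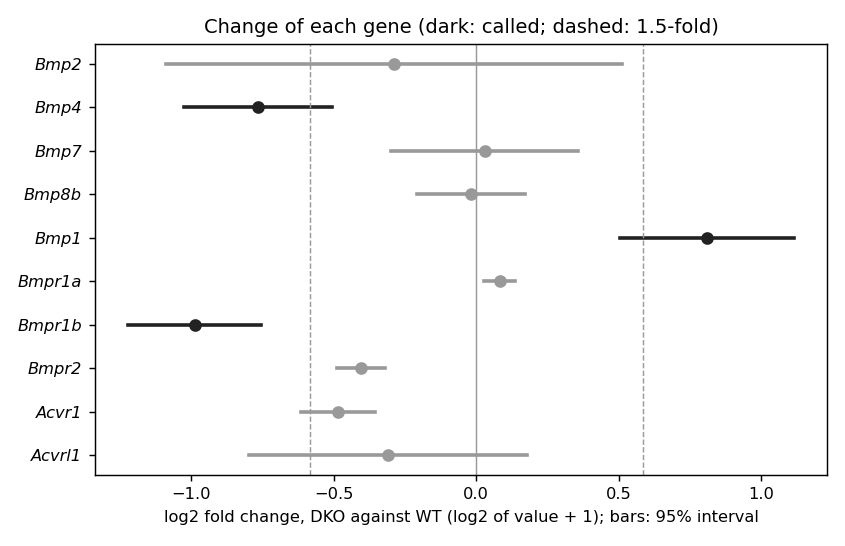
Log2 fold change of DKO against WT for each gene with its 95% interval (limma, n = 3 per group). Dark symbols mark Bmp4, Bmp1 and Bmpr1b, which passed both thresholds, and the intervals of Bmp2, Bmp7, Bmp8b and Acvrl1 span 0.

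The Bmpr1b gene allowed a look along its length, as its entries start at different places. The shortest (NM_001277218) spans 93.4 kb at the 3′ end of the gene, a longer one (NM_007560) adds 51.7 kb, and the entry used above adds 184 kb more. Subtracting one from the next gives 3 stretches, apart from a few kb at the 3′ end that the entries do not share. In the 3′ stretch WT libraries held 56.9, 81.4 and 49.1 normalized reads and DKO libraries 32.8, 37.8 and 40.4. The middle stretch gave 26.9, 17.6 and 25.1 in WT and 13.5, 14.7 and 7.26 in DKO. In the 5′ stretch the values were 120, 121 and 96.5 against 61.9, 33.1 and 56.5. The groups did not overlap in any of these stretches, and the DKO to WT ratios were 0.593, 0.509 and 0.449, whose differences were not tested. The stretches are parts of a gene already called lower, and 29.3% of all genes lay lower in DKO without overlap. Read density in WT was 0.669, 0.448 and 0.612 normalized reads per kb in turn, lowest in the middle stretch. Most of this sequence is intron, so intronic reads can make up much of its level.

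**Figure D4:**
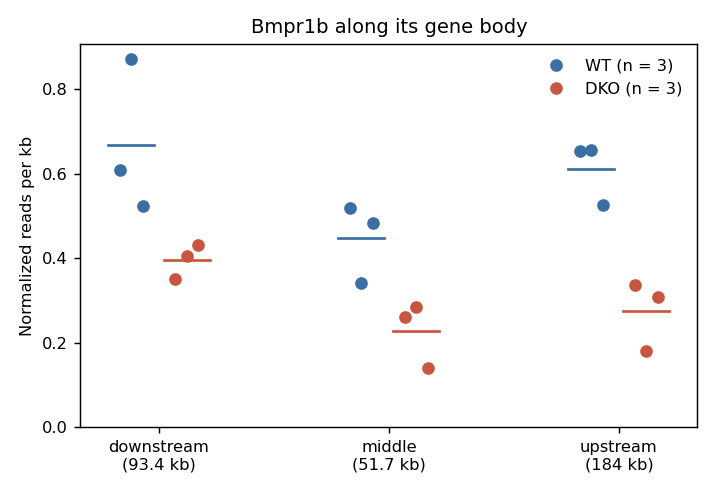
Normalized reads per kb in the 3 stretches of the Bmpr1b gene body, ordered from the 3′ end (downstream) to the 5′ end (upstream), for each WT (blue) and DKO (red) library with means as bars. In each stretch the highest DKO library lies below the lowest WT library.

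In read density the WT receptors ranked in the order Bmpr1a (69.0 ± 1.31 normalized reads per kb of gene body), Bmpr2 (11.2 ± 0.363), Acvr1 (4.27 ± 0.0621), Acvrl1 (1.32 ± 0.0951) and Bmpr1b (0.603 ± 0.0761). Each step in this order exceeded the spread between libraries, and the DKO order was the same, with 73.1 ± 0.382 for Bmpr1a, 8.49 ± 0.122 for Bmpr2, 3.05 ± 0.242 for Acvr1, 1.06 ± 0.0890 for Acvrl1 and 0.302 ± 0.0366 for Bmpr1b. The sum over the 5 receptors came to 86.5 ± 1.04 for WT and 86.0 ± 0.548 for DKO, so the DKO sum was 0.994 of the WT sum. That ratio was 0.977 without division by length and 0.958 per kb of exon, with all DKO libraries below all WT libraries on both scales. The 4 type I receptors alone gave a ratio of 1.03 per kb of gene body and 0.974 per kb of exon. Within the gene-body sum over the 5 receptors, the share of Bmpr1a was 79.8 ± 0.629% in WT and 85.0 ± 0.216% in DKO. The share of Bmpr2 was 13.004 ± 0.549% in WT and 9.88 ± 0.172% in DKO. Per kb, Bmpr1a stood 6.15 ± 0.303 times above Bmpr2 in WT and 8.61 ± 0.156 times in DKO, and above Acvr1 the factors were 16.2 ± 0.523 and 24.1 ± 1.76. Against Bmpr1b the factor was 116 ± 16.2 in WT and 245 ± 31.6 in DKO. Order and factors depend on the length used. Per kb of exon, the WT levels were 1066 normalized reads for Bmpr1a, 156 for Acvr1, 104 for Bmpr1b, 100.8 for Bmpr2 and 6.10 for Acvrl1. This brings Bmpr1b from last to the third place, and its exon length comes from a short transcript model. These levels divide reads over the whole gene body, introns included, by exon length, so they are not levels of exon reads.

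By a rule that looked for the genes most like the called gene with the lowest adjusted p, Bmpr1b was compared with 11929 genes of at least 100 normalized reads. The measure was the root mean square difference of log2 values over the 6 libraries, centered on the WT mean. Closest were Zscan4b (0.0535), Fign (0.0576) and Npr3 (0.0844), with log2 fold changes of -0.94, -1.02 and -0.96. Zscan4b belongs to a family of near-identical genes, so its reads are uncertain.

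Bmp1 (NM_009755, chromosome 14, 70474558 to 70520188, minus strand), which trims procollagens and cuts the Bmp antagonist chordin, was higher in DKO. It measured 49.4, 58.0 and 42.7 normalized reads in WT and 79.6, 91.4 and 93.3 in DKO, with no overlap. The DKO mean was 1.76 times the WT mean, and the log2 fold change was 0.81 ± 0.15 (adjusted p = 4.71e-05). Reads ranged from 80 to 102 per WT library and 148 to 180 per DKO library. Its relatives went the other way, as Tll1, a tolloid-like protease that also cuts chordin, fell from 308 ± 28.0 to 101.1 ± 15.9 (log2 fold change -1.60 ± 0.11) and Tll2 from 27.0 ± 6.98 to 15.9 ± 3.52 (-0.72 ± 0.26, adjusted p = 0.0209, libraries overlapping). The substrate gene Chrd measured 144 ± 7.52 in WT and 162 ± 12.1 in DKO and did not pass the test (adjusted p = 0.154). Bmp1 is also made by fibroblasts. Fibroblast markers summed to 1640.2 to 1719 in WT and 538 to 581 in DKO, with Postn at 0 in WT and 0.350 in DKO. Of 7 tested, Dcn (1330 ± 51.3 in WT and 300.4 ± 16.9 in DKO) and Col1a2 (174 ± 12.9 and 82.7 ± 9.45) were lower, against 8.04% of all genes. Dcn makes up most of the sum in both groups, and the other 5 were not called. The paper states that the embryonic stem cell lines were grown without feeder cells. The part of fibroblasts in the level of Bmp1 was not tested.

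The genes that process ligands, bind them or carry their signal were counted as lists, with no set test. Beside these counts, 8.04% of all genes tested were called lower and 7.35% higher. Of 10 other Bmp and Gdf ligand genes tested (16 listed), 4 were called lower, namely Bmp6, Gdf1, Gdf6 and Gdf15, and the median log2 fold change was -0.50. Bmp6, a close relative of Bmp7, fell from 67.9 ± 2.26 to 41.0 ± 1.38 normalized reads, and Gdf1, which works with Nodal and shares its locus with Cers1, fell from 641 ± 35.3 to 410.2 ± 22.4. Gdf6, with fewer reads, fell from 11.5 ± 0.848 to 5.30 ± 2.91, and the stress-induced Gdf15 fell from 95.04 ± 7.72 to 42.2 ± 9.55. Gdf3, an abundant ligand of pluripotent cells, measured 4186 ± 106 and 3883 ± 32.5 and stayed under the threshold, as did Gdf11 at 197 ± 3.76 and 284 ± 2.70. Among 8 convertases and Bmp1 relatives tested, Pcsk6, which cleaves precursors of Nodal and Bmp ligands, rose from 681 ± 49.9 to 1559 ± 55.1, and Pcsk5, Tll1 and Tll2 fell (median -0.33). The densest of that list, Pcsk7 (log2 fold change 0.15) and the procollagen protease enhancers Pcolce (-0.19) and Pcolce2 (-0.46), stayed under the fold threshold. The receptor-regulated Smads of the Bmp branch and Smad4 all passed the adjusted p and stayed under the fold threshold, with log2 fold changes of -0.28 for Smad1, 0.13 for Smad5, -0.37 for Smad9 and 0.14 for Smad4.

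The supply genes can be set beside Bmp targets in the same libraries. Of 11 targets tested (12 listed), 7 were higher in DKO (Id1, Id2, Id3, Id4, Msx1, Msx2 and Dlx5) and Smad7 and Hey1 were lower, with a median log2 fold change of 2.00. The study itself named the Id genes on these samples, so their direction is not independent evidence. Id1 rose from 48.5 ± 3.36 to 4494 ± 283 normalized reads (log2 fold change 6.51 ± 0.06) and Id3 from 122 ± 9.36 to 2638 ± 151 (4.42 ± 0.06). Over the same comparison, 0 of the 4 ligands and 0 of the 5 receptors were called higher by limma, and edgeR and DESeq2 on the recovered reads also called 0. With 7.35% of all genes called higher, 0 of 9 genes is near the background. At an unadjusted p under 0.05 the one of these 9 genes with a higher value was Bmpr1a, at 1.06 times WT. Protein, processing and receptor activity were not measured in these libraries. In embryoid bodies, the paper reports that a Bmp type I receptor inhibitor lowered phosphorylation of the Bmp-branch Smads in WT but not in DKO. It also reports such phosphorylation in double mutant embryos beyond its usual place in the visceral endoderm.

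**Figure D5:**
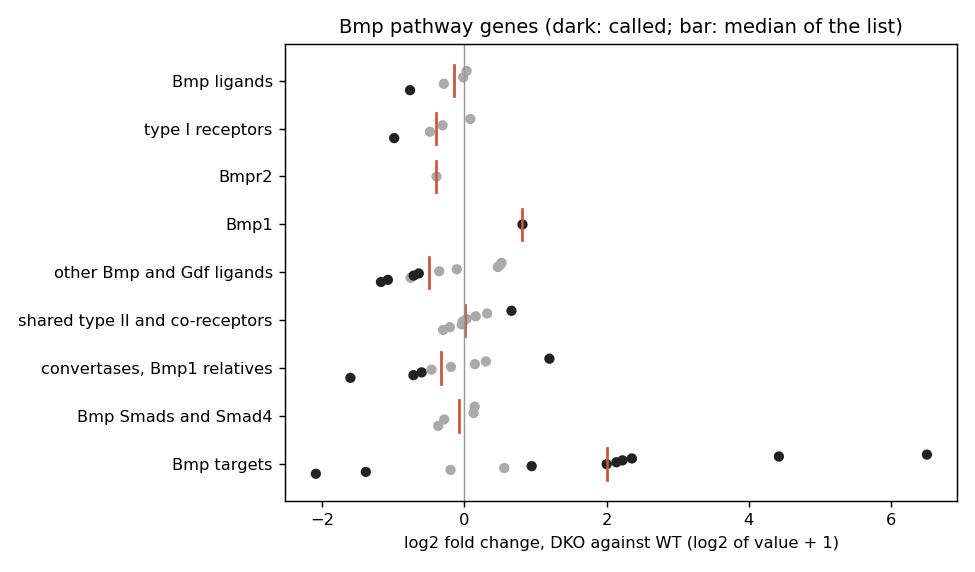
Log2 fold change of DKO against WT for the tested genes of the Bmp pathway lists other than the antagonists, grouped by role, with called genes dark and list medians as red bars. The 4 ligands and 5 receptors of the top 3 rows lie between -0.99 and 0.08, the other ligand genes between -1.17 and 0.52, and the targets between -2.09 and 6.51.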

How the data were processed

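RNA sequencing of 3 WT and 3 DKO libraries was re-analysed. According to the study's methods, ribosomal reads were removed with Bowtie2, the rest were aligned to mm10 with STAR, PCR duplicates were removed with SAMtools and reads were counted over refGene gene bodies. Versions and the strand setting are not given in the sources used here. Values in the table used here are a signal made by the authors, who divided the reads of each refGene entry by 1 size factor per library without scaling to length. Whole reads were recovered from it for 100.0% of values (tolerance 0.01 read, wider in proportion for very high values), with size factors from 1.76 to 1.93. The second deposited table holds the authors' own DESeq2 comparison (means, log2 fold changes, p-values) and was not used.

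Rows without a symbol (138, 0.517% of reads) were left out, and 1 entry per symbol was kept. limma (version 3.58.1, R 4.3.3) was fitted with a variance trend to log2(value + 1) over genes passing filterByExpr of edgeR (version 4.0.16), two-sided, so fold changes of genes with few reads are understated. edgeR and DESeq2 (version 1.42.0) on recovered reads were alternatives. The p-values measure the spread between differentiations of 1 line per genotype. Replicates varied more than counting alone gives, with 3.30 to 5.35 times its variance for each pair.

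The genes and lists were chosen with earlier results of these data known. Named genes are the 10 genes, Smad2, Smad3, called list genes, the 3 genes of each pathway list with the highest density in either group, and the 3 genes most like Bmpr1b. Chosen after their values were seen were Pou5f1, Bmp8a, Acvr2a, Oxct2a, Oxct2b, Chrd, Elf5, Krt18, Ets2, Ttr, Postn, Otx2 and Smad9. One result on the antagonist list is not reported here. Positions and body lengths came from the GENCODE transcript of the entry, else from RefSeq, both on GRCm38, and were found for 99.7% of entries.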

Additional observations from a re-analysis of the deposited data

How the results depend on the processing

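Bmp4, Bmpr1b and Bmp1 kept their calls under the 15 alternatives run for each gene, with log2 fold changes from -0.81 to -0.69, -1.09 to -0.89 and 0.70 to 0.92 and adjusted p up to 0.000218, 5.01e-06 and 0.000592. Bmpr1b also kept its call at its 2 shorter entries, an alternative chosen after seeing the data (-0.79 and -0.71). The number of called genes among the 10 stayed at 3 (1 higher, 2 lower) in 15 of 17 alternatives, each left-out library included, and over all genes it ranged from 2096 to 3904 around 2623, with 2529 to 2610 when 1 library was left out (1174 to 1262 higher, 1283 to 1373 lower). The threshold moved both counts by its construction. Without a fold threshold 9098 genes passed (4591 higher, 4507 lower), 6 of the 10 among them (2 higher, 4 lower), and with 1.5-fold as the null hypothesis 1115 remained (524 higher, 591 lower), with 1 of the 10 called (0 higher, 1 lower). Using every entry gave 3904 calls, since isoforms are then counted apart.

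The direction of Bmp7, not called, turned in fits without WT replicate 1 (-0.00073), WT replicate 2 (-0.03), DKO replicate 1 (-0.01) or DKO replicate 2 (-0.050), and that of Bmp8b without WT replicate 1 (0.01) or WT replicate 2 (0.018). Over all left-out libraries Bmp7 ranged from -0.050 to 0.15 and Bmp8b from -0.080 to 0.018. The DKO to WT ratio of the ligand sum was 0.733, with 0.718 to 0.746 when 1 library was left out, 0.857 without division by length and 0.819 per kb of exon. That of the receptor sum was 0.994, with 0.988 to 0.999, 0.977 and 0.958 in turn. Bmpr1b takes an exon length of 1.91 kb from a short transcript model, which raises its weight on the exon scale.

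Same-numbered libraries of both groups did not deviate together (correlations -0.00787, -0.0252 and 0.00475 over 13071 genes), and replicate numbers were taken as names only. A fit with the replicate block called 2602 genes (1240 higher, 1362 lower), 3 of the 10 genes among them (1 higher, 2 lower). Depth limits Bmp2 and Acvrl1, at 8 to 44 reads per library.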

Other observations

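Among the antagonists, Bmper, which binds Bmp ligands outside the cell, was higher in DKO, from 17.2 ± 4.12 to 36.7 ± 3.06 normalized reads (SD, n = 3 each), a log2 difference of 1.07 ± 0.23 (SE, adjusted p by limma 0.000285). The antagonists with the highest read density did not pass the fold threshold, namely Fst (1117 ± 18.0 in WT and 920.2 ± 17.2 in DKO), Twsg1 (2140 ± 61.0 and 2396 ± 69.2) and Fstl1 (1007 ± 53.6 and 1251 ± 20.0). Bambi, a pseudoreceptor without a kinase domain, measured 591 ± 13.9 and 517 ± 32.9.

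Among 8 type II receptors shared with activin and co-receptors tested, 1 was called higher, against 7.35% of all genes. It was Eng, a co-receptor that works with Acvrl1 in blood vessels. Its WT mean of 511 ± 46.4 normalized reads stood against a DKO mean of 807 ± 31.1 (log2 difference 0.66 ± 0.06, adjusted p by limma 4.87e-10). Acvr2a and Acvr2b, which can stand in for Bmpr2 as type II receptors, measured 950.3 ± 31.6 and 877 ± 25.5 in WT and 933 ± 38.1 and 762 ± 56.2 in DKO. Neo1 (2113 ± 13.9 in WT and 2359.9 ± 20.1 in DKO) and Hfe2 (58.7 ± 4.75 and 48.4 ± 12.9), which with Eng and Acvr2b were densest in reads, stayed under the fold threshold. The median of this list was 0.00.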
